A study of Sus scrofa with 8 samples.

Results

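The major histocompatibility complex (MHC) and antigen processing genes of pig islets are described here across 8 arrays. They are the classical and nonclassical swine leukocyte antigen (SLA) genes together with the genes whose products cut, carry and load the peptides that SLA molecules display. A gene was a member when a probe set carried a single platform symbol that started with SLA- or was 1 of 30 fixed names of the antigen processing pathway. This gave 29 genes, read by 47 probe sets, of 6765 genes with a single symbol on the array. Of the 30 fixed names, 13 matched no probe set under that spelling, among them TAP2, PSMB9, CTSL, NLRC5, RFX5 and RFXAP, and these genes were not analysed here. SLA-1, a classical class I gene, had no probe set to itself, because the 4 sets that list it also list other genes.

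Islets were isolated from the pancreas of male Duroc/Large white cross neonatal pigs, 4 labelled 3-day-old and 4 labelled 7-day-old, with 1 Affymetrix porcine GeneChip per pig. Both labels shared collagenase digestion and culture in Ham's F10 medium with 10 mmol/l glucose, 50 µmol/l isobutylmethylxanthine and 10 mmol/l nicotinamide, with the last listed medium change on day 7. The arrays thus read cultured preparations of mixed cells and not sorted endocrine cells, and p-values measure the spread between pigs of one label. The study asked whether islets of the 2 ages differ in function and in features that concern the immune response to a graft. The hormone genes INS, GCG, SST and PPY were bright in all 8 arrays, from 16863 for PPY to 34489.7 for GCG, and none passed the test. IAPP, the islet amyloid gene, stayed below the 20th percentile of intensity in all 8 arrays.

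Class I molecules are a heavy chain bound to beta-2-microglobulin, and nearly all nucleated cells carry them. Their peptides are cut by the proteasome in the cytosol, pumped into the endoplasmic reticulum by the TAP transporter and loaded with the help of tapasin. Class II molecules are pairs of alpha and beta chains that are made by dendritic cells, macrophages and B cells, among other cells. The invariant chain CD74 guides them to endosomes, where cathepsins and other proteases trim CD74 and the antigen, and SLA-DM exchanges the last CD74 fragment for a peptide. In islet xenotransplantation, class I and class II of the donor are among the proteins that the T cells of a recipient can recognise.

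Arrays are named by their deposited labels, and every difference is the log2 level of the 7-day-old label minus that of the 3-day-old label. The probe sets for which the study gives a direction differed in the opposite direction under these labels, and the sources used here do not settle which labels are exchanged. Sizes, intervals and overlaps do not depend on this, and each direction below does.

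Of the 29 member genes, 4 were lower in arrays labelled 7-day-old and 0 were higher (limma, adjusted p under 0.05). The 4 were the class II chain SLA-DQB1, the cathepsins CTSH and CTSK, and PSMB10, an inducible catalytic subunit of the proteasome. They are 13.8% of the members, while 12.2% of the 6540 genes tested passed in either direction, 7.16% of them lower and 5.03% higher. The share of members called was therefore near the background. The median log2 difference was -0.27 over the members and -0.02 over all genes tested, and 79.3% of the members had a negative value against 53.4% of all genes. At an unadjusted p under 0.05 there were 9 of the 29 members, a share near the 29.9% of all genes. All 29 members passed the filter on low values, which asks that a probe set reach the 20th percentile of its array at least once. SLA-DOA passed through arrays labelled 3-day-old alone, and without it the median of the other 28 was -0.20. In 7 members, or 24.1%, the intensities of the labels did not overlap, and the share over all genes was 24.7%. All 7 were lower in arrays labelled 7-day-old, which holds for 13.5% of all genes. Over probe sets, 10.7% of the 21574 tested were called, and of the 46 tested for the members 4 were called, each the representative of its gene. Of the 17 further tested sets, 10 had the sign of the representative.

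**Figure D1:**
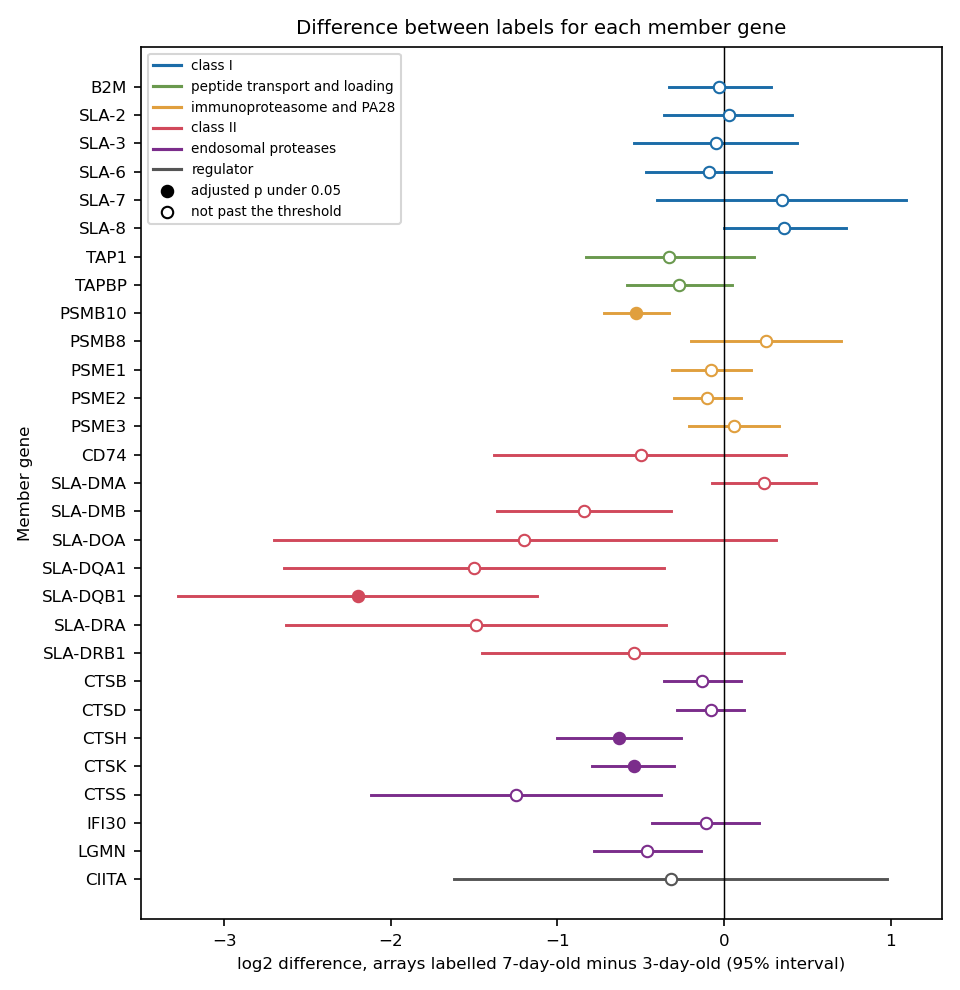
Each of the 29 member genes by its log2 difference, 7-day-old label minus 3-day-old label (n = 4 each), on the x axis, with its 95% interval from limma, coloured by role, where filled points passed an adjusted p of 0.05. The class I genes lie around 0, from -0.09 to 0.36, and the filled points are SLA-DQB1 at -2.20, CTSH at -0.63, CTSK at -0.54 and PSMB10 at -0.53.

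The class I genes other than SLA-7 were bright, and none of the 6 passed the test. B2M, which encodes beta-2-microglobulin, had intensities of 24191, 25758, 28164 and 27837 in arrays labelled 3-day-old and of 27096, 23693, 31971 and 22105 in arrays labelled 7-day-old. The lowest and the highest of the 8 values both came from arrays labelled 7-day-old. Its log2 difference was -0.03, with a 95% interval from -0.33 to 0.28 (adjusted p = 0.918). SLA-2, a classical heavy chain that presents peptides to CD8+ T cells, gave 4542 ± 763 (SD, n = 4) and 4619 ± 705 (SD, n = 4). SLA-3, another classical heavy chain, gave 1797 ± 380.1 and 1734 ± 344 (SD, n = 4 each). Their log2 differences were 0.03 and -0.05, with adjusted p of 0.93 and 0.904. For these 3 genes and for SLA-6 the interval lay within a change of 1.5-fold in either direction, so a larger change was outside the interval for 4 of the 6 class I genes.

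The nonclassical heavy chains SLA-6, SLA-7 and SLA-8 are less variable relatives of the classical ones. SLA-6 was at 1682 ± 270.3 and 1576 ± 251 (SD, n = 4 each), and the log2 difference was -0.09. SLA-8 read 1260.1, 1655, 1433 and 1734 in arrays labelled 3-day-old and 1708, 1662, 2332 and 2134 in arrays labelled 7-day-old. The ranges of SLA-8 overlapped, and its log2 difference of 0.36 had an interval from 0.00 to 0.73 (adjusted p = 0.181). SLA-7 was dim, with 44 ± 22.8 and 51.9 ± 8.74 (SD, n = 4 each), and its interval from -0.40 to 1.09 leaves its change poorly bounded.

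Other probe sets also read class I. B2M had 8 further sets, whose log2 differences ran from -0.75 to 0.39 with adjusted p from 0.138 to 0.884, so none of them passed. The largest of these was the dimmest set, at 119 and 70.8 on average. The B2M sets at 0.39 and -0.15 had labels that did not overlap, with opposite signs. Of the 5 sets that list several class I genes, the set shared by SLA-2 and SLA-3 read 4202 ± 539.6 and 4225 ± 419.5 (SD, n = 4 each), so that the log2 difference came to 0.01. The brightest of the sets that include SLA-1 read 3663 ± 1121 and 2983 ± 739.5 (SD, n = 4 each), which gives a log2 difference of -0.27 with an adjusted p of 0.57. The 3 other sets that list SLA-1, all dim, were at 0.60, 0.51 and 0.80, with adjusted p of 0.152, 0.308 and 0.583. Close relatives among the class I genes can bind the same probes, so the values of single heavy chains are uncertain.

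Peptide transport and loading showed no change past the threshold. TAP1, a subunit of the peptide transporter, read 788, 406, 561 and 616 in arrays labelled 3-day-old and 588, 441, 428 and 402 in arrays labelled 7-day-old. The ranges overlapped, and the log2 difference was -0.33 with an interval from -0.83 to 0.18 (adjusted p = 0.375). TAPBP, which encodes tapasin, read 907 ± 117 and 753 ± 97.7 (SD, n = 4 each), and the log2 difference was -0.27 (adjusted p = 0.246). Among 13 other antigen presentation genes tested, 1 was higher and 0 were lower, or 7.69% against 12.2% of all genes. Their median log2 difference was 0.01. The 1 gene was SEC61B, a subunit of the translocation channel of the endoplasmic reticulum, at 0.35 (adjusted p = 0.0395). CALR, the chaperone calreticulin of the loading complex, was at 0.36 without passing (adjusted p = 0.101).

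Of the proteasome genes tested, PSMB10 was the single one past the threshold. PSMB10 is the inducible subunit that takes the place of PSMB7 in the immunoproteasome. It read 506, 466, 463 and 431 in arrays labelled 3-day-old and 325, 309, 342 and 321 in arrays labelled 7-day-old. Every array labelled 3-day-old lay above every array labelled 7-day-old, with means of 467 ± 30.8 and 324 ± 13.7 (SD, n = 4 each). The log2 difference was -0.53 ± 0.08 (SE), 1.44-fold lower with an interval from 1.26 to 1.65 (adjusted p = 0.0118). PSMB8, the inducible counterpart of PSMB5, had the opposite sign, with 135 ± 20.7 and 162 ± 41.8 (SD, n = 4 each), so that the log2 difference came to 0.25 and an adjusted p of 0.456. PSME1 and PSME2, the subunits of the interferon-inducible PA28 activator, were at -0.08 and -0.10, and PSME3, the subunit of the nuclear form, was at 0.06. The intervals of these 3 lay within 1.5-fold. Of 31 constitutive proteasome genes tested, 0 passed in limma in either direction and 5 had an unadjusted p under 0.05, with a median of -0.01. Over all genes, 12.2% passed and 29.9% had an unadjusted p under 0.05. PSMF1, a proteasome inhibitor, had the largest difference of this list, at -0.47 without overlap between labels (adjusted p = 0.0798). PSMB7 was at -0.15 (adjusted p = 0.305) and PSMB5 at 0.27 (adjusted p = 0.0803). The difference between PSMB10 and the other proteasome genes was not tested.

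The class II genes gave the largest differences among the members, and most of them were read from dim probe sets. Of the 8 genes, 1 was lower and 0 were higher, or 12.5% against 12.2% of all genes, a share near the background. SLA-DOA reached the 20th percentile in arrays labelled 3-day-old alone, so the filter favoured a negative value, although its ranges overlapped (adjusted p = 0.277). Among the other 7 genes, 6 had a negative value and the median was -0.84, against -1.02 with SLA-DOA. Their summed level can follow the number of cells that make class II or the RNA in each such cell, and in bulk samples fewer cells of a type and less RNA per cell cannot be told apart. The 20th percentile of the arrays lay between 26.4 and 31.3 and the array median between 171.6 and 178.5. In 7 of the 8 genes no more than 1 of the 8 arrays reached its array's median.

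SLA-DQB1, the beta chain of the DQ molecule, read 138, 103, 82.6 and 57.9 in arrays labelled 3-day-old. In arrays labelled 7-day-old it read 11.7, 47.9, 15.6 and 17.4. The labels did not overlap, but 3 of the arrays labelled 7-day-old lay below their 20th percentile, where the size of a fold depends on the background. SLA-DQB1 fell by 2.20 on the log2 scale ± 0.46 (SE), with an interval from -3.28 to -1.12 (limma, adjusted p = 0.0271). With an offset of 16 added before log2, which damps dim values, the difference was -1.54. The call was lost in the methods' test (adjusted p = 0.0518) and in 6 of the 8 fits that left out an array, where the adjusted p reached 0.0707. Those were the fits without replicate 1, 2 or 3 of the arrays labelled 3-day-old and without replicate 1, 3 or 4 of those labelled 7-day-old.

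SLA-DQA1, the alpha chain of the same molecule, read 179, 143, 108 and 112 in arrays labelled 3-day-old and 16.1, 59.1, 74.7 and 68.4 in arrays labelled 7-day-old. SLA-DRA, the alpha chain of the DR molecule, read 240.2, 85.8, 113 and 93.6 in arrays labelled 3-day-old and 54.6, 47.9, 73.2 and 18.5 in arrays labelled 7-day-old. Neither gene had labels that overlapped. Their log2 differences were -1.50 and -1.49, with adjusted p of 0.0954 and 0.0972, so neither passed. SLA-DQA1 passed in 1 of the 8 fits that left out an array, and SLA-DRA in 0. That fit was without replicate 1 labelled 7-day-old, at -0.98 with an adjusted p of 0.0475. Of 10 other alternatives each gene passed in 1, the fit with an intensity trend and robust variances, with adjusted p of 0.0357 and 0.0372.

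SLA-DRB1, the beta chain of DR, behaved less evenly. Its representative set read 42.5, 47.7, 47.9 and 66.1 in arrays labelled 3-day-old and 41.1, 27.3, 69.2 and 18.4 in arrays labelled 7-day-old. The ranges overlapped, and the log2 difference of -0.54 had an interval from -1.45 to 0.36 (adjusted p = 0.416). A further SLA-DRB1 set was at -1.92 (adjusted p = 0.198). The 2 tested sets that list SLA-DRB1 beside an unnamed locus were at -1.57 and -1.18, with adjusted p of 0.207 and 0.286. The signs of these 4 sets were the same, and none passed, while a further set of each kind did not reach the filter. Summed over the 4 DR and DQ chains, intensities were 599.6, 379, 352 and 329.7 in arrays labelled 3-day-old and 124, 182, 233 and 123 in arrays labelled 7-day-old.

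**Figure D2:**
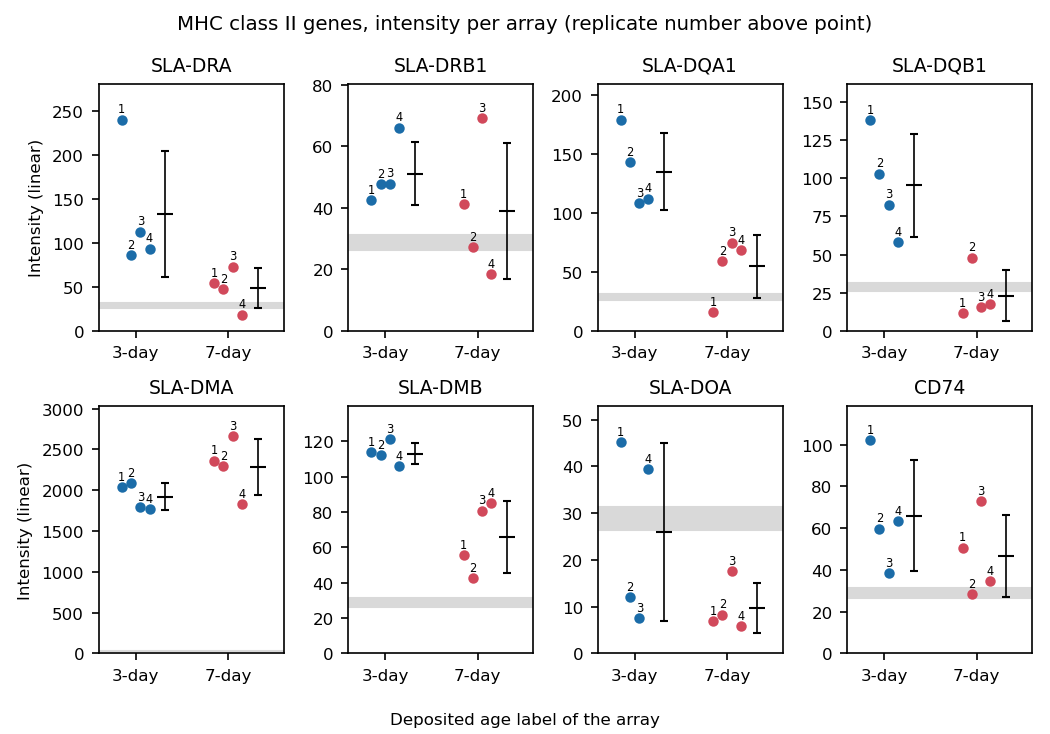
Linear intensity of the 8 class II genes in each array (y axis) by deposited label (x axis), with the replicate number above each point, black marks for the mean and SD of 4 arrays, and a grey band from 26.4 to 31.3 for the 20th percentile of the arrays. SLA-DRA, SLA-DQA1, SLA-DQB1 and SLA-DMB separate by label, most points lie near the grey band, and SLA-DMA, from 1771 to 2662, lies far above it.

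The genes that assist class II did not share one pattern. SLA-DMB, the beta chain of the DM exchange factor, read 114, 112, 121 and 106 in arrays labelled 3-day-old and 55.4, 42.4, 80.7 and 84.9 in arrays labelled 7-day-old. The labels did not overlap, and the log2 difference of -0.84 ± 0.22 (SE) missed the threshold (adjusted p = 0.0545). It passed in 1 of the 8 fits that left out an array, without replicate 4 labelled 7-day-old (adjusted p = 0.0489). Of 10 other alternatives it passed in 3, with array quality weights (0.0332), with the intensity trend (0.0367) and with the offset (0.0386). It did not pass in the methods' test (0.0838) or without the filter (0.0674). SLA-DMA, the alpha chain of DM, was bright and had the opposite sign, at 1921 ± 162 and 2286 ± 346 (SD, n = 4 each), which gives a log2 difference of 0.24 (adjusted p = 0.285). A second, dim SLA-DMA set was at -0.41 (adjusted p = 0.395), and the mean of both sets was at -0.08. CD74, the invariant chain, read 102, 59.7, 38.3 and 63.4 in arrays labelled 3-day-old and 50.7, 28.5, 73 and 34.7 in arrays labelled 7-day-old, with overlapping ranges and a log2 difference of -0.50 (adjusted p = 0.434). SLA-DOA, a chain of the DO modulator of DM, lay below the 20th percentile in all 4 arrays labelled 7-day-old and in 2 of those labelled 3-day-old, so no fold is read from it.

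CIITA, the coactivator that switches on class II genes, was measured close to the background. It read 21.8, 24.4, 61.9 and 60.6 in arrays labelled 3-day-old and 34.7, 14.7, 68.8 and 23.4 in arrays labelled 7-day-old, and 4 of the 8 arrays reached the 20th percentile. Its log2 difference of -0.32 had an interval from -1.62 to 0.98 (adjusted p = 0.757), which includes a 2-fold fall and reaches nearly to a 2-fold rise. Replicate 1 labelled 3-day-old held the highest value of 5 of the 8 class II genes. Its CIITA value of 21.8 lay below the 20th percentile of that array, at 30.1, so no level of CIITA is read from it.

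The endosomal proteases were bright, and all 7 had a negative value, with a median of -0.46. Over all genes tested, 53.4% had a negative value. Of the 7, 2 were lower, or 28.6%, against 7.16% of all genes. CTSK, cathepsin K, a collagen-degrading protease best known from osteoclasts, read 2401, 2703, 2481 and 2550.4 in arrays labelled 3-day-old and 1994, 1793, 1691 and 1512 in arrays labelled 7-day-old. The labels did not overlap, and CTSK fell by 0.54 on the log2 scale ± 0.10 (SE), 1.46-fold with an interval from 1.23 to 1.72 (adjusted p = 0.021). Without replicate 2 or 3 labelled 3-day-old or replicate 2 labelled 7-day-old its adjusted p was 0.0606, 0.0558 and 0.0556. CTSH, cathepsin H, a lysosomal aminopeptidase, read 2341, 1966, 2532 and 1852 in arrays labelled 3-day-old and 1445, 1088, 1486 and 1619 in arrays labelled 7-day-old. The labels did not overlap here either, and CTSH fell by 0.63 ± 0.16 (SE) on the log2 scale (adjusted p = 0.0469). That call stood at the edge of the threshold, since it was lost in each of the 8 fits that left out an array (adjusted p from 0.0528 to 0.110) and without the filter (0.0588), with quantile normalization (0.0504) and in the methods' test (0.0664).

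CTSS, cathepsin S, the protease that performs the last cuts of the invariant chain in antigen-presenting cells, had the largest difference of the proteases. It read 3281, 2029, 1307 and 1615 in arrays labelled 3-day-old and 625, 912, 551 and 1393 in arrays labelled 7-day-old. Replicate 1 labelled 3-day-old was the highest and replicate 4 labelled 7-day-old lay inside the range of the other label. The log2 difference of -1.25 had an interval from -2.12 to -0.38 and did not pass (adjusted p = 0.0753), and 2 further sets were at -1.26 and -0.48. CTSS passed in 0 of the 8 fits that left out an array and in 1 of 11 other alternatives. That 1 was the stricter filter, under which fewer probe sets are tested (adjusted p = 0.0227). LGMN, the asparagine-specific protease legumain, read 3961 ± 556 and 2871 ± 338 (SD, n = 4 each), and the log2 difference was -0.46 (adjusted p = 0.0778). LGMN passed in 1 of the 8 fits that left out an array, without replicate 4 labelled 3-day-old (adjusted p = 0.0398). Of 11 other alternatives it passed in 3, the stricter filter (0.0266), the intensity trend (0.0154) and array quality weights (0.0484). It did not pass in the methods' test (0.0925) or without the filter (0.095). CTSB and CTSD, broad lysosomal proteases, were at -0.13 and -0.08, and IFI30, the thiol reductase that opens disulfide bonds of antigens, was at -0.11. The intervals of these last 3 lay within 1.5-fold.

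**Figure D3:**
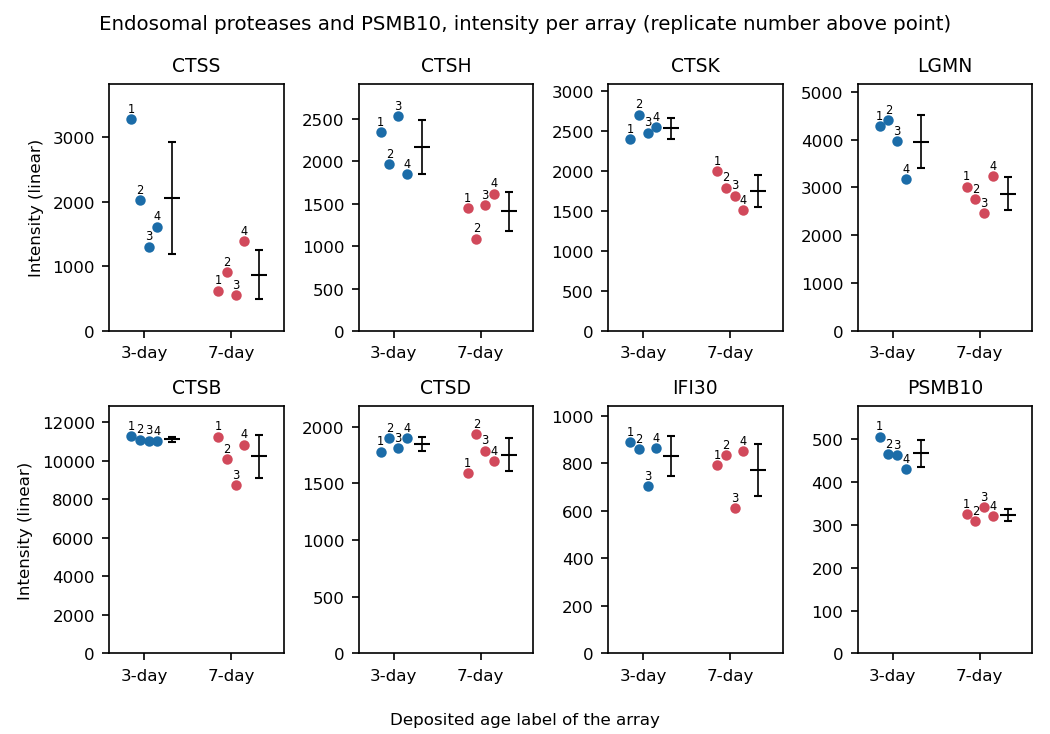
Linear intensity of the 7 endosomal protease genes and of PSMB10 in each array (y axis, from 0) by deposited label (x axis), with the replicate number above each point and black marks for the mean and SD of 4 arrays. CTSK, CTSH and PSMB10 separate by label, CTSS separates except for replicate 4 labelled 7-day-old at 1393, and CTSB, CTSD and IFI30 overlap.

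Other genes of the endosomal route were described by lists. Of 7 other cathepsins and cystatins, 2 were lower and 0 higher, or 28.6% against 12.2% of all genes, with a median of -0.09. They were CTSV, a cathepsin closely related to cathepsin L, at -0.39 (adjusted p = 0.0266) and CST3, the secreted cathepsin inhibitor cystatin C, at -0.47 (adjusted p = 0.0423). CTSC, cathepsin C, read 1729.8 ± 397 and 917 ± 310.1 (SD, n = 4 each) and missed the threshold at -0.94 (adjusted p = 0.054). Of 22 lysosome genes, 3 were lower and 1 higher, or 18.2% against 12.2% of all genes, with a median of -0.12. IGF2R, a receptor that delivers enzymes to lysosomes, was at -0.89 (adjusted p = 0.00809), NPC1, a cholesterol transporter, at -0.47 (adjusted p = 0.0235), and ARSA, a sulfatase, at 0.47 (adjusted p = 0.0341).

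Interferon gamma induces many of the members, so its receptors and response genes were listed too. Of 30 tested, 3 were lower and 0 higher, or 10% against 12.2% of all genes, with a median of -0.02. All 3 were receptor chains, namely IFNGR1 of the interferon gamma receptor at -0.68 (adjusted p = 0.0105), IFNAR1 at -0.54 (adjusted p = 0.0426) and IFNAR2 at -0.37 (adjusted p = 0.0317) of the type I receptor. IRF1, a transcription factor that interferon gamma induces, was at -0.05 with an interval from -0.31 to 0.20 (adjusted p = 0.802). Of 6 costimulation and adhesion genes, 2 were lower and 0 higher, or 33.3% against 12.2% of all genes, with a median of -0.67. CD40, the receptor for CD154, averaged 342 ± 56.2 and 172 ± 31.2 (SD, n = 4 each), 1.99-fold lower (adjusted p = 0.0155). ICAM1, a ligand of LFA-1, averaged 1798 ± 319.9 and 796 ± 55.1 (SD, n = 4 each), 2.24-fold lower (adjusted p = 0.00591).

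Across arrays, the members did not deviate in one block. Replicate 1 labelled 3-day-old was the highest of the 8 arrays for 13 of the 29 members. Its median deviation from the gene means was 1.08 on the log2 scale over the class II genes, 0.19 over the endosomal proteases and -0.09 over class I. Among the arrays labelled 7-day-old, replicate 3 had a positive median deviation over class II, at 0.18, and the other 3 lay between -0.88 and -0.51. The same replicate was lowest for 4 of the 7 endosomal proteases, and over all probe sets it stood apart from the other arrays on the second principal component.

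**Figure D4:**
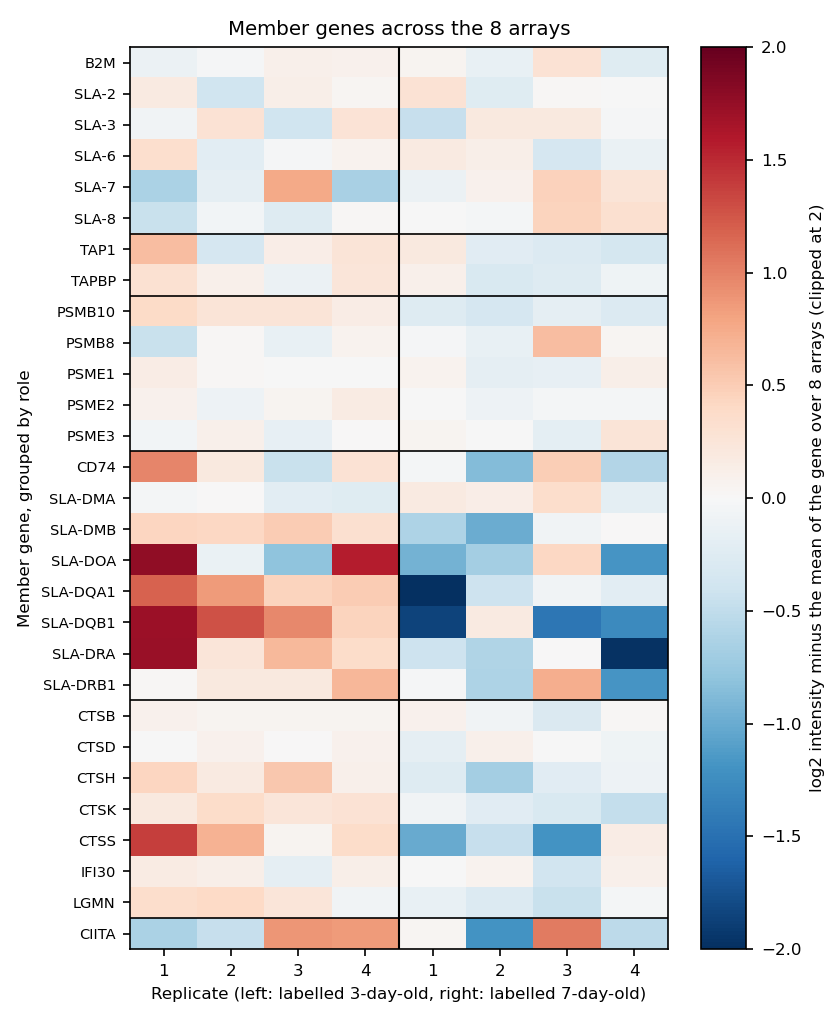
Log2 intensity of each member gene in each array minus the mean of that gene over the 8 arrays (colour, clipped at 2), with genes in rows grouped by role and arrays in columns, 4 labelled 3-day-old on the left and 4 labelled 7-day-old on the right. The class II rows hold the strongest colours, with replicate 1 labelled 3-day-old at a median of 1.08, and the class I rows are pale.

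Markers of antigen-presenting cells are given beside the class II genes. Of 14 macrophage and dendritic cell markers tested, 2 were lower and 0 higher, or 14.3% against 12.2% of all genes, a share near the background. TYROBP, an adaptor of myeloid receptors, was at -2.25 (adjusted p = 0.0328), with 1 of the 4 arrays labelled 7-day-old at the 20th percentile. LY86, the other, passed the filter through arrays labelled 3-day-old alone and read 14.3 to 43.5 and 1.25 to 8.07, so no fold is read from it. Among the 13 other markers 1 was lower, 9 had a negative and 4 a positive value, and the median was -1.0. The summed intensity of 15 such markers was 2688, 1325, 1066 and 1286 in arrays labelled 3-day-old and 755, 646, 861 and 1097 in arrays labelled 7-day-old. Replicate 1 labelled 3-day-old, the highest for the summed DR and DQ chains, was also the highest here. CD14 averaged 73.6 and 37.3, CD163 116 and 65.6, and C1QA 134 and 56.3, none past the threshold. MARCO was at 0.75, ITGAM at 0.72, XCR1 at 0.18 and SPI1 at 0.06 on the log2 scale, none past the threshold either, while FCGR1A lay below the 20th percentile in all arrays. Of 6 common leukocyte markers, 2 were lower and 0 higher, or 33.3%, with sums of 1697 to 2187 and 1253 to 1503. LCP1, 1 of the 2, held the largest part of these sums, at 989 and 657 on average. A negative value was found for 5 of the 6, while ITGB2 was at 0.54 without overlap between labels (adjusted p = 0.0512). PTPRC, the gene of the pan-leukocyte protein CD45, reached the 20th percentile in 1 of the 8 arrays. Of 3 B cell markers, 1 was lower, or 33.3%. This was BLNK at -2.04 (adjusted p = 0.00288), and its intensity of 1278 to 1944 made up most of the list's sum of 1404 to 2085. CD79B, a defining B cell marker, was at or below 31.8 in every array. Of 9 T and NK cell markers tested, 1 was higher and 0 lower, or 11.1%, and the sums were 409.9 to 531 and 406 to 503. The higher gene was CD247, at 0.46 (adjusted p = 0.0412), and CD247 and CD8B made up most of these sums. CD2 and CD4 passed the filter through arrays labelled 7-day-old alone.

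Markers of cells that are not leukocytes differed between the labels. Over all genes tested, 7.16% were lower and 5.03% higher. Of 12 endothelial markers, 5 were lower and 0 higher, with sums of 3287 to 3674 and 2018 to 2233. TIE1, among the 5, passed the filter through arrays labelled 3-day-old alone, and without it 4 of 11 were lower. Of 11 fibroblast and stellate markers, 6 were lower and 0 higher, with sums of 49196 to 58640 and 36333 to 39565. Most of these sums came from SPARC and VIM, which were not among the 6 (adjusted p = 0.0594 and 0.0637). SPARC averaged 20389.6 and 16696, and VIM 20516 and 15200.2. Of 7 duct markers 2 were lower, with sums of 49531 to 55872 and 45890.1 to 50519.5, and of 4 acinar markers 1 was lower, with sums of 29647 to 32425 and 25369 to 35951. Of 15 islet endocrine markers tested, 6 were higher and 0 lower, with sums over 16 genes of 147284 to 183389 and 171709 to 210828. The part of these cell types in the differences of SLA-DQB1, CTSH, CTSK, PSMB10 and the other members was not tested.

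**Figure D5:**
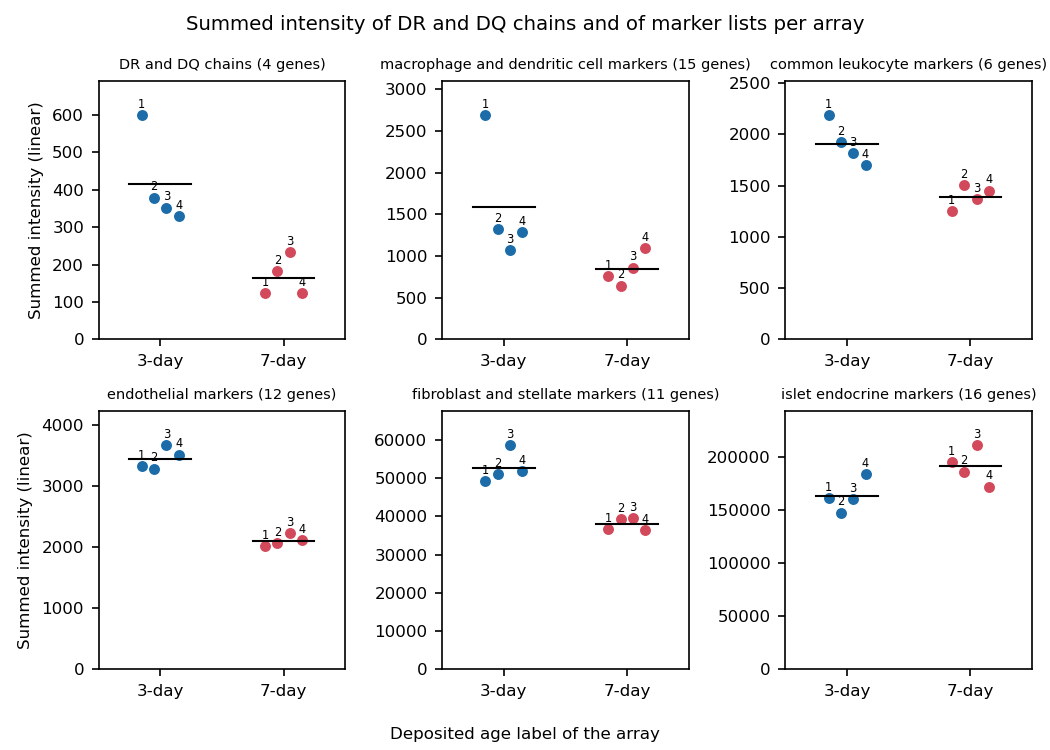
Summed linear intensity per array (y axis, from 0) of the 4 DR and DQ chains and of 5 marker lists, by deposited label (x axis), with the replicate number above each point and a black line at the mean of 4 arrays. DR and DQ, leukocyte, endothelial and fibroblast sums separate by label, macrophage sums of 1066 to 2688 and 646 to 1097 overlap, and replicate 1 labelled 3-day-old is highest for DR and DQ and for macrophages.

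Neighbouring members in the pig genome did not all share a sign. By gene order in RefSeq (assembly Sscrofa11.1, used for order alone, since the array files name no build), SLA-DRA, SLA-DRB1, SLA-DQA1, SLA-DQB1, PSMB8, TAP1, SLA-DMB, SLA-DMA and SLA-DOA follow each other, each within 1 Mb of the one before. Along this run the log2 differences were -1.49, -0.54, -1.50, -2.20, 0.25, -0.33, -0.84, 0.24 and -1.20. PSMB8 and SLA-DMA had positive values in this run, and the value of SLA-DOA is one against the background. CTSK and CTSS also lie within 1 Mb of each other, at -0.54 and -1.25.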

How the data were processed

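Islet RNA of 8 pigs was read on the Affymetrix porcine GeneChip. The deposited table holds 1 linear intensity for every probe set in every array. These intensities were already scaled by the authors, since each array has a mean of 500 once 2% is trimmed at each end. How probes were summarised is not given in the sources. Median normalisation of probe sets, a step of the methods, is absent from the deposited intensities. The methods also describe a further amplification round for low cRNA without naming samples, which could affect dim probe sets. The table holds no detection or saturation flags.

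Intensities below 1 were set to 1 (1528 values, 0 in the representative sets of members) and taken to log2. Of 23999 probe sets other than controls, 21574 had an intensity at or above the 20th percentile of their array at least once in the 8 arrays and were tested by lmFit and eBayes (limma 3.58.1, R 4.3.3, no covariate, two-sided, Benjamini-Hochberg over all probe sets tested, threshold 0.05). The script was tested on simulated data. The probe set with the highest mean log2 stood for its gene. Of the probe sets, 10069 carried 1 symbol, 198 several and 13732 none. The rule named every member and up to 4 genes per list past the threshold, or up to 2 bright ones where none passed. CALR, CTSC, IAPP, PSMB5, PSMB7, PSMF1, IRF1, CD14, CD163, C1QA, MARCO, ITGAM, XCR1, SPI1, FCGR1A, PTPRC and CD79B were named after their values were seen. The same holds for SPARC, VIM, ITGB2, CD8B, CD2 and CD4. The members and the 15 lists were chosen with earlier results of these data known. Several marker lists were given by counts and sums, with few or no genes named.

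With 4 arrays per label, the standard error of a log2 difference had a median of 0.17, and this number of arrays sets the precision. Array medians lay between 171.6 and 178.5. Correlations of log2 values were 0.942 to 0.957 within a label and 0.93 to 0.94 between labels. The alternatives were to drop the filter, to require the array's 50th percentile in 4 or more arrays (stricter filter), the methods' test, an intensity trend with robust variances, centring on array medians, quantile normalization, array quality weights, a replicate block, an offset of 16, the mean of all probe sets of a gene, leaving out shared probe sets, and leaving out each array. Leaving out genes at the filter in arrays of one label alone was added after seeing the data. Promoter motifs and sequences were not analysed here. Plots were drawn with matplotlib 3.10.9 in Python 3.11.15.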

Additional observations from a re-analysis of the deposited data

Results flagged for a closer look

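In 58 groups of 4 arrays, each member gene under each label, the gap of an extreme array to the others was examined, and 2 groups stood out. Chance flags about 1 in 20 such groups. SLA-DQB1 was highest in replicate 2 labelled 7-day-old at 47.9, while the other 3 arrays of that label lay between 11.7 and 17.4. IFI30 was lowest in replicate 3 labelled 3-day-old at 704, while the other 3 arrays of that label lay between 861 and 891.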

How the results depend on the processing

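The count of lower members, 4 in the main analysis, was 2 with the methods' test, 8 with the intensity trend and robust variances (adding LGMN, SLA-DMB, SLA-DQA1 and SLA-DRA) and 1 to 4 without a single array. The count of higher members was 0 in every fit. PSMB10 passed in all 8 fits without an array, CTSK in 5, SLA-DQB1 in 2 and CTSH in 0. The 797 genes called became 1245 with the stricter filter, 1283 with the trend and 335 to 614 without an array, and the 2305 probe sets called became 3491 with the trend and 1008 to 1854 without an array. The median of the members, -0.27, was -0.10 with the stricter filter, which left 19 members, -0.13 with the mean of all probe sets and -0.35 to -0.13 without an array. Signs turned for B2M with quantile normalization (0.04), and for SLA-6 (0.20) and SLA-DMA (-0.08) with the mean of all probe sets. Without a single array, values ran from -0.13 to 0.05 for B2M, -0.10 to 0.12 for SLA-2, -0.19 to 0.10 for SLA-3, -0.18 to 0.00 for SLA-6, -0.72 to 0.02 for CIITA and -0.02 to 0.14 for PSME3. The cause was not tested. The replicate numbers did not pair the arrays (residual correlations of -0.0135 to 0.00487), and a replicate block left 0 members, 0 genes and 0 probe sets past the threshold, with 10 members at an unadjusted p under 0.05. Low signal over background limits SLA-DQB1, SLA-DOA, SLA-7 and CIITA most.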
